A study of Homo sapiens with 27 samples.

Results

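The 10 nuclear genes for mitochondrial chaperones and proteases were followed across SIRT3 knockdown in diffuse large B-cell lymphoma (DLBCL) cells. They were taken by their gene symbols from the 27115 genes listed in each library: HSPD1, HSPE1, HSPA9, TRAP1, DNAJA3, LONP1, CLPP, CLPX, YME1L1 and AFG3L2, and all 10 were found and tested. RNA was sequenced from 3 established DLBCL cell lines, Karpas422, OCI-Ly1 and HBL1, each infected with a scrambled hairpin (shCTRL) or with a hairpin that targets SIRT3, either shSIRT3-1 or shSIRT3-2. There were 3 replicates for each hairpin in each line and 27 libraries in all. The study placed Karpas422 in the oxidative phosphorylation subtype, OCI-Ly1 in the germinal center B-cell-like subtype and HBL1 in the activated B-cell-like subtype, so that each subtype is seen in a single line. All cells, controls included, had been infected with an shRNA lentivirus that carries puromycin resistance and YFP, and RNA was taken on day 8. The comparison asks whether transcripts of the mitochondrial folding and quality control machinery move when SIRT3, the main protein deacetylase of the mitochondrial matrix, is lowered.

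Nearly all mitochondrial proteins are made in the cytosol and enter the organelle unfolded. HSPA9 pulls them in and folds them, the HSPD1 and HSPE1 chaperonin encloses them, and the proteases LONP1, CLPXP, YME1L1 and AFG3L2 remove those that fail. When misfolded proteins build up in the matrix, cells can raise the nuclear genes for these chaperones and proteases, a program known as the mitochondrial unfolded protein response, which in mammalian cells has been linked to the transcription factors ATF5, ATF4, DDIT3 (CHOP) and HSF1.

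Between 28694398 and 53405456 reads per library fell on genes, with a median of 45669254. The deposited values are CPM, reads scaled to a fixed total per library, and are not divided by gene length. The B-cell markers MS4A1, CD79A, CD79B and PAX5 were present in every library, at 136 CPM or more. The T-cell and monocyte markers CD3D, CD3E, CD14 and LYZ reached at most 1.59 CPM. SIRT3 itself lay between 9.14 and 16.4 CPM in the control libraries, between 1.06 and 2.79 CPM with shSIRT3-1 and between 2.84 and 6.24 CPM with shSIRT3-2. HBL1 shSIRT3-1 replicate 3 stood apart from its group, with a mean correlation of 0.9584 over genes with the other 2 replicates of that group. In bulk RNA, fewer cells of a kind and less RNA per cell cannot be told apart. The labels do not say whether replicates were separate cultures, so that p-values measure the spread between these samples only.

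The genes lie apart except for the chaperonin pair. On hg19, HSPD1 lies on the minus strand of chromosome 2 from 198351308 to 198381461 and HSPE1 on the plus strand from 198364864 to 198368173, inside the annotated span of HSPD1, with 0 of the 557 bases of the HSPE1 reference transcript in an HSPD1 exon. HSPA9 lies on chromosome 5 from 137889445 to 137911364, TRAP1 on chromosome 16 from 3701640 to 3767554, DNAJA3 on chromosome 16 from 4475806 to 4506776, LONP1 on chromosome 19 from 5691845 to 5720583 and CLPP on chromosome 19 from 6361542 to 6370253. CLPX lies on chromosome 15 from 65440557 to 65477680, YME1L1 on chromosome 10 from 27399040 to 27444195 and AFG3L2 on chromosome 18 from 12328943 to 12377226. These are gene spans of the GENCODE annotation, and the read counts come from exons of RefSeq genes.

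Promoter windows are shown for HSPE1, HSPD1 and LONP1, the genes whose transcripts moved most or had a partner next to them. The windows run from 250 bases before a start site to 50 after it, come from RefSeq on GRCh38.p14, and were found for 8 of the 10 genes, in 10 windows. They were searched on both strands for heat shock motifs (GAANNTTC and TTCNNGAA, which can overlap each other), a C/EBP-ATF motif (TGATGNAA) and an NRF1 core (GCATGCGC), and capitals mark the matches. HSPE1 (chr2:197500129-197500428, plus strand), HSPD1 (chr2:197499791-197500090, minus strand) and LONP1 (chr19:5720403-5720702, minus strand) read 5′ to 3′ as follows.
HSPE1: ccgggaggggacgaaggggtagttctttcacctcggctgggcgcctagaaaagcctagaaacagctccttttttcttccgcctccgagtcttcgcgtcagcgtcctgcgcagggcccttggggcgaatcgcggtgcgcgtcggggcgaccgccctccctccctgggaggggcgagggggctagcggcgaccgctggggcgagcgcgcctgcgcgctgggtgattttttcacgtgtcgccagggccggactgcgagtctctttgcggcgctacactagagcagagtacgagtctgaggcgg
HSPD1: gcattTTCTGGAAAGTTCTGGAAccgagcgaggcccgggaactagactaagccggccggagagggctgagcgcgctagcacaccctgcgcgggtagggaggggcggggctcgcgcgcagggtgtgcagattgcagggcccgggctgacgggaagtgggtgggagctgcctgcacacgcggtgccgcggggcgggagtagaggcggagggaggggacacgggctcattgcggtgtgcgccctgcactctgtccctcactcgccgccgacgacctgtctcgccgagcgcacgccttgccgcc
LONP1: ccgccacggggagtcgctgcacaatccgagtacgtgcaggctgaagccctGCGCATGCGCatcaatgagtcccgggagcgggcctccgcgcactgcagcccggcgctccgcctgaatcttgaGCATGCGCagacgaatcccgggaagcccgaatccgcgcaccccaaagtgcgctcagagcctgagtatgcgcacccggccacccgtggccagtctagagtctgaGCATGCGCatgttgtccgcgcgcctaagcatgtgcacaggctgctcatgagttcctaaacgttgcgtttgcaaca
The HSPD1 window held 3 overlapping heat shock matches near its 5′ end, and the HSPE1 window held none of the motifs. That 5′ end, at 197500090, lies just outside the HSPE1 window, which begins at 197500129, and the 2 genes are read away from each other. The same matches thus also lie upstream of HSPE1, beyond the cut of its window, and bases outside the windows were not searched. A second HSPD1 window, at chr2:197500225-197500524, shared 204 bases with the HSPE1 window on the opposite strand and held no match. The LONP1 window shown held 4 NRF1 core matches, 2 of them overlapping, and a second LONP1 window, at chr19:5720097-5720396, held no match. HSPA9 held 1 heat shock match (ggttggaggtTTCCAGAAgcgctgccgc) and DNAJA3 1 NRF1 core (cgtgcgcgacGCATGCGCctctacgcgc). Over 35116 windows of the same length, GAANNTTC was present in 6.77%, TTCNNGAA in 7.74%, TGATGNAA in 3.62% and GCATGCGC in 3.05%. TGATGNAA was found in 0 of the 10 windows, which says only that these letters are not there.

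In control cells the 10 transcripts differed widely in level, and their order differed between lines. Per kb of reference transcript, HSPD1 was the most abundant in Karpas422, at 75.6 ± 15.5 CPM per kb (SD, n = 3), and in OCI-Ly1, at 61.7 ± 15.4, while HSPA9 led in HBL1 at 99.5 ± 11.4 CPM per kb, ahead of HSPD1 at 87.3 ± 2.21. LONP1 was the third in each line, between 43.6 and 60.2 CPM per kb on average. CLPX, at 7.70 ± 0.322 and 10.2 ± 0.404 CPM per kb, was the lowest in Karpas422 and OCI-Ly1, and AFG3L2 the lowest in HBL1, at 9.60 ± 0.947. Neighbors in this order often overlapped in their spread, such as YME1L1 at 30.7 ± 2.50 and TRAP1 at 28.1 ± 6.57 CPM per kb in Karpas422.

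**Figure D1:**
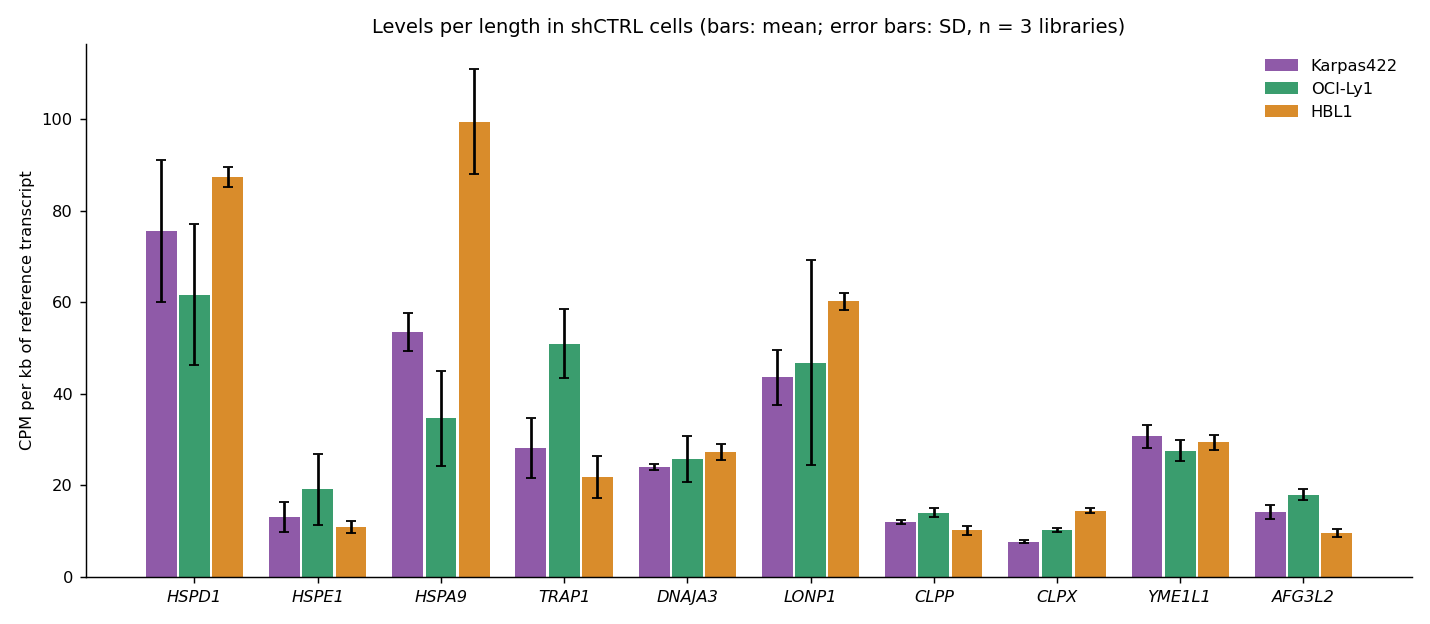
Levels of the 10 transcripts in shCTRL cells, in CPM per kb of the reference transcript (vertical axis), for Karpas422, OCI-Ly1 and HBL1; bars are means and error bars SD over 3 libraries. HSPA9 in HBL1 is the tallest bar, at 99.5 CPM per kb, and YME1L1 lies between 27.6 and 30.7 in all lines.

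HSPE1, the cochaperonin, stood low in this order in Karpas422 and HBL1, at 13.1 ± 3.28 and 10.9 ± 1.30 CPM per kb, although its protein works in a complex with HSPD1. Its level is uncertain: 192 of its 557 transcript bases (34.5%) lie in exons of the readthrough gene HSPE1-MOB4, which is listed at 0 in 27 of 27 libraries, and the treatment of reads that fall in both genes is not given in the sources used here. Comparisons of HSPE1 between libraries carry the same limit in all 27.

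Between the control groups, where a call needed more than 1.5-fold and an adjusted p (Benjamini-Hochberg, limma) under 0.05, HBL1 differed from OCI-Ly1 in 4 of the 10 genes, against 54.6% of all genes tested. HSPA9, the mitochondrial HSP70, was higher in HBL1 by 1.56 ± 0.21 on the log2 scale (SE, adjusted p = 7.8e-05). TRAP1, the mitochondrial HSP90, was lower in HBL1 (log2 difference −1.24 ± 0.21, adjusted p = 3.4e-04), as were AFG3L2 (−0.91 ± 0.11, adjusted p = 4.3e-05) and HSPE1 (−0.72 ± 0.28, adjusted p = 0.042), whose call was lost without OCI-Ly1 shCTRL replicate 1 (−0.41, adjusted p = 0.16). At any fold 7 genes passed in this comparison, against 67.3% of all genes. LONP1 was at 0.47 (adjusted p = 0.15), and at 0.83 (adjusted p = 0.0014) without OCI-Ly1 shCTRL replicate 2. HBL1 against Karpas422 gave 2 genes (54.6% of all), HSPA9 (log2 difference 0.89) and CLPX (0.91), and Karpas422 against OCI-Ly1 gave 2 (50.8% of all), HSPA9 (0.67) and TRAP1 (−0.88). At any fold these comparisons gave 3 genes (67.8% of all) and 4 genes (63.6% of all). CLPX and AFG3L2 were among those passing at any fold in all 3 comparisons, whereas TRAP1 did not pass between HBL1 and Karpas422 (−0.36, adjusted p = 0.14). YME1L1 differed by at most 0.15 in these comparisons.

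The plot of all libraries shows the knockdown data on which the following comparisons rest. Over the 3 lines, 1 of the 10 genes changed with shSIRT3-1, against 13.0% of the 13076 genes tested, and 2 changed with shSIRT3-2, against 13.5%. LONP1 fell with shSIRT3-1 (9.09% of all genes fell) and with shSIRT3-2 (10.2%). It was thus 1 of 10 genes called alike with both shRNAs, against 5.09% of all genes, and 3.98% counting falls alone. HSPE1 rose with shSIRT3-2, as did 3.29% of all genes. At any fold, 6 genes passed the adjusted p threshold with shSIRT3-1, against 37.9% of all genes: LONP1, DNAJA3, HSPA9, CLPX and AFG3L2 were lower (22.3% of all genes) and HSPE1 higher (15.6%). With shSIRT3-2, 3 genes passed, against 38.1%: LONP1 and DNAJA3 were lower (21.7%) and HSPE1 higher (16.3%). All 3 passed in the same direction with both shRNAs, against 18.2% of all genes, of which 10.5% were lower and 7.65% higher. The median log2 fold change of the 10 genes was −0.23 with shSIRT3-1 and −0.10 with shSIRT3-2, beside −0.05 and −0.03 over all genes tested. The comparisons with each shRNA share the shCTRL libraries. Of all genes called, 69.9% were lower with shSIRT3-1 and 75.6% with shSIRT3-2, and with quantile normalization these shares were 54.6% and 57.4%.

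**Figure D2:**
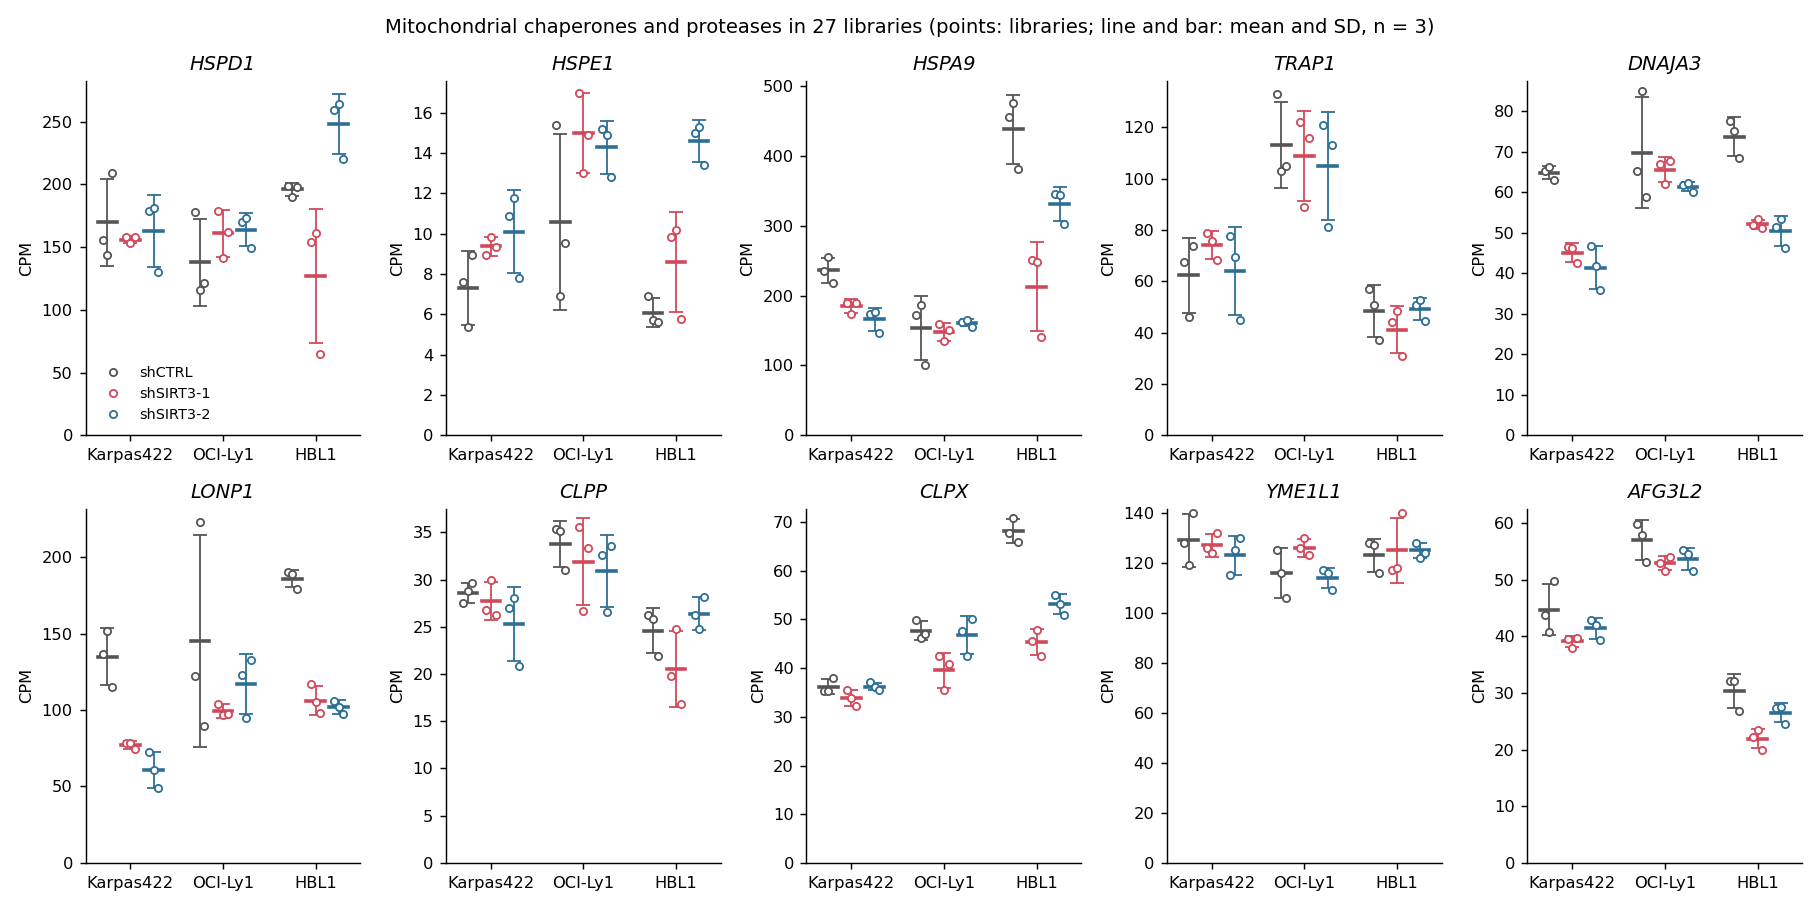
CPM (vertical axes, from 0) of the 10 genes in every library, by cell line and shRNA; circles are libraries, thick lines means and bars SD over 3 libraries. LONP1 and DNAJA3 lie below all control libraries with both shRNAs in Karpas422 and HBL1, and YME1L1 stays between 106 and 140 CPM in all 27 libraries.

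LONP1, an ATP-dependent protease of the matrix that degrades oxidized and misfolded proteins, had the lowest log2 fold change of the 10 genes with each shRNA over the 3 lines. In Karpas422 it was at 137, 152 and 115 CPM in the 3 control libraries, at 78.7, 78.3 and 74.2 with shSIRT3-1 and at 72.5, 60.5 and 48.9 with shSIRT3-2. In HBL1 it was at 190, 189 and 179 CPM in controls, at 117, 105 and 97.8 with shSIRT3-1 and at 106, 102 and 97.2 with shSIRT3-2. In both lines every knockdown library lay below every control library. OCI-Ly1 controls spread from 89.4 to 223 CPM (122, 223 and 89.4), and the knockdown libraries, at 104, 96.8 and 97.1 with shSIRT3-1 and 123, 94.9 and 133 with shSIRT3-2, lay within that range.

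Over the 3 lines, the log2 fold change of LONP1 was −0.68 ± 0.14 with shSIRT3-1 (SE, adjusted p = 3.5e-04) and −0.75 ± 0.14 with shSIRT3-2 (adjusted p = 1.5e-04), which left 62.4% and 59.5% of the control level, and 18 of 18 knockdown libraries lay below the control mean of their line. The fall was −0.80 (95% interval −1.12 to −0.47, adjusted p = 0.0034) and −1.16 (−1.48 to −0.84, adjusted p = 5.9e-04) in Karpas422, and −0.81 (−1.02 to −0.60, adjusted p = 3.9e-04) and −0.87 (−1.08 to −0.67, adjusted p = 3.2e-04) in HBL1, with shSIRT3-1 and shSIRT3-2. In OCI-Ly1 it was −0.44 (−1.05 to 0.18, adjusted p = 0.33) and −0.22 (−0.83 to 0.40, adjusted p = 0.64). In OCI-Ly1 the count of 18 of 18 rested on shCTRL replicate 2, the library at 223 CPM. Without that library the OCI-Ly1 values were −0.07 and 0.15, and those over the 3 lines −0.62 (adjusted p = 9.9e-04) and −0.69 (adjusted p = 4.2e-04). Counts of 18 of 18, here and for DNAJA3 and AFG3L2 below, were not set against all genes. Without replicate 2 of every group, LONP1 no longer met the fold threshold, at −0.52 (adjusted p = 0.050) and −0.55 (adjusted p = 0.046).

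Of the chaperonin pair, HSPE1 passed with both shRNAs over the 3 lines at any fold and HSPD1 with neither, and the difference between the genes was not tested. HSPE1, the 10 kDa lid of the chaperonin, was higher in 17 of 18 knockdown libraries than the control mean of its line. Its Karpas422 values were 7.60, 5.35 and 8.96 CPM in controls, 8.94, 9.86 and 9.35 with shSIRT3-1 and 10.9, 11.8 and 7.82 with shSIRT3-2. Its OCI-Ly1 values were 15.4, 6.92 and 9.52 CPM, then 17.0, 13.0 and 14.9, then 15.2, 14.9 and 12.8 in the same order. In HBL1 the controls lay at 6.92, 5.74 and 5.60 CPM, shSIRT3-1 at 9.84, 10.2 and 5.75 and shSIRT3-2 at 15.0, 15.3 and 13.4. The groups overlapped in Karpas422 and OCI-Ly1, and the shSIRT3-2 libraries of HBL1 all lay above its controls, as did 26.7% of all genes in that comparison.

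Over the 3 lines, HSPE1 was higher by 0.47 ± 0.15 with shSIRT3-1 (adjusted p = 0.019), under the 1.5-fold threshold, and rose by 0.74 ± 0.15 with shSIRT3-2 (adjusted p = 5.8e-04), to 167% of control. In HBL1 with shSIRT3-2 it rose by 1.25 (0.76 to 1.74, adjusted p = 0.0028), to 238% of control, against 7.51% of all genes called higher there. In single lines no other comparison of HSPE1 passed, with values from 0.39 to 0.56 and adjusted p from 0.094 to 0.21. Without HBL1 shSIRT3-1 replicate 3, the shSIRT3-1 value in HBL1 was 0.72 (adjusted p = 0.0019). Without OCI-Ly1 shCTRL replicate 1, the library at 15.4 CPM, HSPE1 was higher in OCI-Ly1 by 0.87 (adjusted p = 0.013) with shSIRT3-1 and 0.80 (adjusted p = 0.016) with shSIRT3-2. Without replicate 2 of every group it passed with neither shRNA over the 3 lines, at 0.27 (adjusted p = 0.36) and 0.51 (adjusted p = 0.086).

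HSPD1, the 60 kDa barrel of the chaperonin, did not pass over the lines, with −0.20 (−0.54 to 0.14, adjusted p = 0.35) for shSIRT3-1 and 0.18 (−0.16 to 0.52, adjusted p = 0.40) for shSIRT3-2. In HBL1 the controls lay at 199, 190 and 198 CPM, shSIRT3-1 at 154, 161 and 64.7 and shSIRT3-2 at 259, 264 and 220. The 2 shRNAs thus sat on opposite sides of all controls there, but neither log2 difference passed, at −0.74 (−1.43 to −0.06, adjusted p = 0.079) and 0.33 (−0.35 to 1.02, adjusted p = 0.42). Without HBL1 shSIRT3-1 replicate 3, the lowest library, both passed at any fold, with −0.31 (adjusted p = 0.023) and 0.33 (adjusted p = 0.0091). In Karpas422 and OCI-Ly1 HSPD1 lay between 116 and 209 CPM and the groups overlapped. Without OCI-Ly1 shCTRL replicate 1 it was higher in OCI-Ly1 at any fold, by 0.43 (adjusted p = 0.037) and 0.47 (adjusted p = 0.028).

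HSPA9 (mortalin) is the matrix HSP70 and the motor of protein import. In HBL1 it was at 456, 476 and 382 CPM in controls, at 251, 248 and 140 with shSIRT3-1 and at 346, 344 and 303 with shSIRT3-2. In Karpas422 it was at 235, 255 and 218 CPM, then 190, 173 and 190, then 174, 176 and 147. All knockdown libraries of these 2 lines lay below their controls, whereas OCI-Ly1 controls, at 172, 186 and 101 CPM, spanned its knockdown libraries, at 135 to 165 CPM.

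HSPA9 fell in HBL1 with shSIRT3-1 by 1.08 on the log2 scale (−1.08, interval −1.58 to −0.59, adjusted p = 0.0050), to 47.2% of control, and by 0.81 (−0.81, adjusted p = 6.8e-04) without HBL1 shSIRT3-1 replicate 3. With shSIRT3-2 in HBL1 the value was −0.40 (−0.89 to 0.09, adjusted p = 0.18), and it passed at any fold without HBL1 shSIRT3-1 replicate 3 (−0.40, adjusted p = 0.0089). In Karpas422 it was lower with both shRNAs, by less than 1.5-fold, at −0.35 (adjusted p = 0.025) and −0.51 (adjusted p = 0.0055), and the first of these did not pass with median-ratio scaling (−0.27). Over the 3 lines the values were −0.48 ± 0.15 (adjusted p = 0.012) and −0.26 ± 0.15 (adjusted p = 0.15).

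DNAJA3 (TID1), the J-domain partner that delivers unfolded proteins to HSPA9, was lower with both shRNAs by less than 1.5-fold. In Karpas422 it was at 65.2, 66.2 and 63.1 CPM in controls, 46.5, 46.3 and 42.4 with shSIRT3-1 and 46.6, 41.8 and 35.9 with shSIRT3-2. HBL1 gave 77.6, 75.2 and 68.4 CPM, then 51.8, 53.3 and 51.2, then 51.5, 53.5 and 46.3. None of these 12 knockdown libraries reached its controls, while OCI-Ly1 overlapped, with controls at 65.3, 85.0 and 58.7 CPM and knockdown libraries from 60.1 to 67.7. Over the 3 lines the log2 fold changes were −0.36 ± 0.08 (adjusted p = 5.5e-04) and −0.45 ± 0.08 (adjusted p = 5.9e-05), with 18 of 18 knockdown libraries below the control mean of their line. In OCI-Ly1 this count rested on shCTRL replicate 2, the library at 85.0 CPM, without which the values there were 0.08 and −0.01 and those over the 3 lines −0.35 (adjusted p = 0.0014) and −0.44 (adjusted p = 1.8e-04). Without replicate 2 of every group the shSIRT3-1 value over the 3 lines no longer passed, at −0.30 (adjusted p = 0.059), and the shSIRT3-2 value was −0.41 (adjusted p = 0.018). Only in Karpas422 with shSIRT3-2 did DNAJA3 pass 1.5-fold (−0.65, adjusted p = 0.0016), and the values there and in HBL1 were otherwise −0.52, −0.50 and −0.55.

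TRAP1, the HSP90 of the matrix, did not pass with either shRNA, with log2 fold changes of −0.01 (−0.27 to 0.26, adjusted p = 0.97) and −0.02 (−0.28 to 0.25, adjusted p = 0.94). Its range was 31.0 to 133 CPM over all libraries, most of which lay between lines, with OCI-Ly1 between 81.3 and 133 CPM and HBL1 between 31.0 and 57.2. In single lines its values ran from −0.23 to 0.28, and the groups overlapped in each of the 6 comparisons.

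CLPX is the unfoldase that feeds substrates to the peptidase CLPP. In HBL1 it was at 67.7, 70.8 and 65.9 CPM in controls, at 45.5, 47.9 and 42.5 with shSIRT3-1 and at 55.1, 53.2 and 51.0 with shSIRT3-2, so that the 3 groups were fully separate. It fell there with shSIRT3-1 (−0.59, −0.77 to −0.40, adjusted p = 1.0e-03), just past 1.5-fold, and was lower with shSIRT3-2 (−0.36, −0.55 to −0.17, adjusted p = 0.010). With quantile normalization and median-ratio scaling the first of these was −0.50 and −0.48, under 1.5-fold. In Karpas422 CLPX stayed between 32.2 and 37.9 CPM, and in OCI-Ly1 it was lower in each shSIRT3-1 library (42.4, 35.5 and 40.8 CPM) than in each control (49.8, 46.1 and 47.1), without passing (−0.27, adjusted p = 0.12, with 15.0% of all genes below all controls in that comparison). Over the 3 lines it was −0.32 ± 0.06 with shSIRT3-1 (adjusted p = 3.2e-04) and −0.13 ± 0.06 with shSIRT3-2 (adjusted p = 0.11).

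CLPP, the peptidase itself, did not pass with either shRNA, and its difference from CLPX was not tested. It lay between 16.8 and 35.6 CPM, overlapped in every line, and its log2 fold changes over the lines were −0.14 (−0.32 to 0.04, adjusted p = 0.21) and −0.07 (−0.25 to 0.11, adjusted p = 0.54).

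Of the inner membrane proteases, YME1L1, which faces the intermembrane space, was the steadiest of the 10 transcripts. Its highest library was 1.33-fold above its lowest, and its log2 fold changes were 0.04 (−0.06 to 0.15, adjusted p = 0.52) and −0.02 (−0.13 to 0.08, adjusted p = 0.77). AFG3L2, the matrix-facing protease, lay below the control mean in 18 of 18 knockdown libraries, by small steps: its values were −0.26 ± 0.06 with shSIRT3-1 (adjusted p = 0.0014) and −0.13 ± 0.06 with shSIRT3-2 (adjusted p = 0.091). In HBL1 it was at 32.1, 32.1 and 26.9 CPM in controls, at 22.2, 23.4 and 20.0 with shSIRT3-1 and at 27.4, 27.6 and 24.6 with shSIRT3-2. The shSIRT3-1 libraries lay below all controls there (−0.47, adjusted p = 0.0097), and the shSIRT3-2 libraries overlapped them (−0.19, adjusted p = 0.21).

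**Figure D3:**
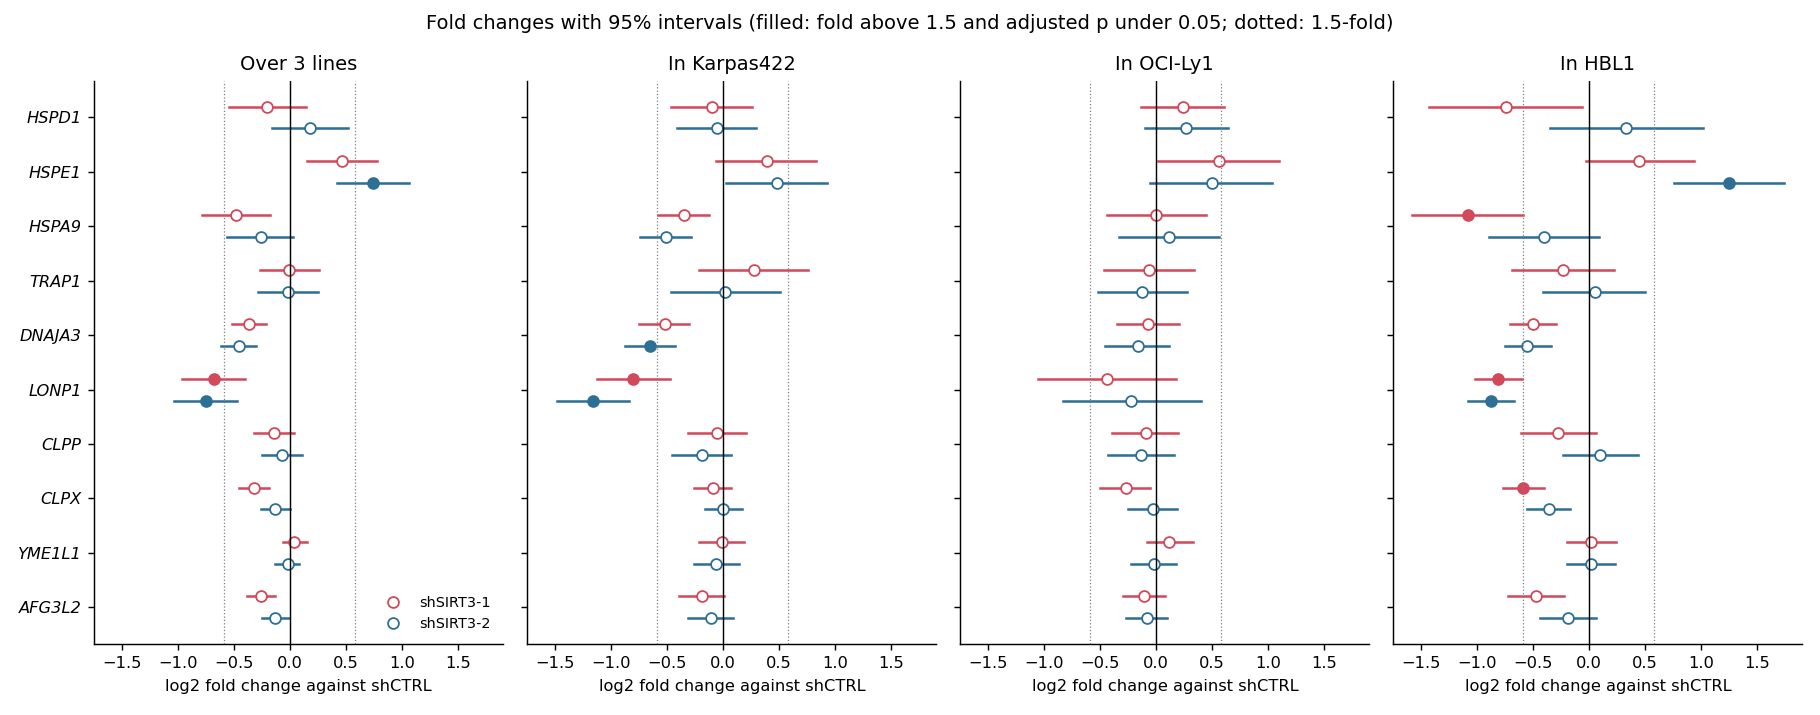
Log2 fold changes against shCTRL (horizontal axes) of the 10 genes over the 3 lines and in each line, with 95% intervals; filled circles passed a fold above 1.5 and an adjusted p under 0.05, and dotted lines mark 1.5-fold. LONP1 is filled with both shRNAs in Karpas422 and HBL1, HSPE1 is the only gene filled on the right, and no circle is filled in OCI-Ly1.

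Counted by line, 1 gene was called in Karpas422 with shSIRT3-1 (16.0% of all genes) and 2 with shSIRT3-2 (15.0%). In HBL1, 3 were called with shSIRT3-1 (27.7% of all genes, 18.8% lower), all lower, and 2 with shSIRT3-2 (23.5%), 1 lower (16.0%) and 1 higher. At any fold the counts were 3 (33.7%) and 3 (31.1%) in Karpas422 and 5 (40.0%) and 4 (34.7%) in HBL1. In OCI-Ly1 limma called 0 of the 10 with each shRNA, against 4.50% and 6.41% of all genes, and 0 at any fold, against 7.31% and 9.42%. Both edgeR tests also called 0 there. Before adjustment 2 genes passed a limma threshold of 0.05 with shSIRT3-1, HSPE1 and CLPX, and 0 with shSIRT3-2. In HBL1, 6 genes lay below all controls with shSIRT3-1 (30.8% of all genes) and 4 with shSIRT3-2 (34.2%), and in Karpas422 4 (32.2%) and 3 (24.4%). The median log2 fold change of all genes in HBL1 with shSIRT3-1 was −0.11, and 0.00 and 0.04 with median-ratio scaling and quantile normalization, under which LONP1 was at −0.70 in both and HSPA9 at −0.98 and −1.04. In that comparison 68.0% of all calls were lower, and 55.8% and 48.4% with those scalings.

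Whether the lines responded differently was tested by an interaction term. It passed for 4 of the 10 genes, HSPA9 (adjusted p = 0.014), CLPX (0.011), DNAJA3 (0.041) and HSPD1 (0.042), against 41.8% of all genes. LONP1 (0.091), HSPE1 (0.14), AFG3L2 (0.12), CLPP (0.19), TRAP1 (0.47) and YME1L1 (0.74) did not pass. Without OCI-Ly1 shCTRL replicate 2 the adjusted p of LONP1 was 9.6e-04, so that 1 library decided that call. In 27 fits that each left out 1 library, HSPA9 and CLPX passed in 27, DNAJA3 in 11 and HSPD1 in 10, and of the others LONP1, CLPP and AFG3L2 in 1 each. Both edgeR tests passed HSPA9 and CLPX and none of the other 8 genes.

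Set directly against each other over the 3 lines, shSIRT3-2 and shSIRT3-1 gave 0 calls among the 10 genes, against 11.3% of all genes, although SIRT3 differed between them by 1.08 ± 0.17 on the log2 scale (adjusted p = 4.6e-05). At any fold 1 gene passed, CLPX, higher with shSIRT3-2 by 0.19 ± 0.06 (adjusted p = 0.023), against 31.7%. It did not pass with quantile normalization (0.12, adjusted p = 0.12), where YME1L1 did (−0.15, adjusted p = 0.031), or without replicate 2 of every group (0.20, adjusted p = 0.097). edgeR called 0 as well, and at an unadjusted p under 0.05 limma also gave HSPD1 (0.39, interval 0.05 to 0.73) and AFG3L2 (0.13, 0.01 to 0.25). LONP1 (−0.07, −0.35 to 0.21) and DNAJA3 (−0.09, −0.25 to 0.07) had intervals that exclude a 1.5-fold difference between the shRNAs. So did HSPA9, TRAP1, CLPP, CLPX, YME1L1 and AFG3L2, but not HSPD1 or HSPE1 (−0.04 to 0.59). All these intervals are for the mean over the 3 lines, and the 2 shRNAs were not compared within a line. They therefore do not exclude such a difference in a single line. In HBL1, HSPA9 lay between 140 and 251 CPM with shSIRT3-1 and between 303 and 346 CPM with shSIRT3-2.

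The other genes of the pathway were counted from 5 lists. Of 7 tested factors linked to the mitochondrial unfolded protein response, 4 fell with each shRNA over the 3 lines, against 9.09% and 10.2% of all genes, and 0 rose, against 3.92% and 3.29%. The median log2 fold changes were −0.91 and −1.03 for shSIRT3-1 and shSIRT3-2, beside −0.05 and −0.03 over all genes. The log2 fold changes were −2.55 and −2.39 for ATF5, −2.67 and −2.92 for CEBPB, −1.27 and −1.86 for DDIT3 and −0.91 and −1.03 for ATF4, all with adjusted p of 0.0014 or less. ATF4 is the main effector of the integrated stress response, and DDIT3 and ATF5 are among its known targets. The study reported, by quantitative PCR at earlier days after infection, that ATF4 mRNA was unchanged. The reason for the difference from the values on day 8 was not tested. These 4 genes were called lower with each shRNA in Karpas422 (11.5% and 9.44% of all genes) and in HBL1 (18.8% and 16.0%). In OCI-Ly1 0 of the 7 were called, against 4.50% and 6.41% of all genes, and the medians were −0.36 and −0.50. The OCI-Ly1 controls spread widely, from 97.9 to 504 CPM for ATF5 and from 129 to 326 for ATF4. They ran from 4.38 to 29.8 CPM for DDIT3 and from 1.76 to 16.2 for CEBPB. The absence of calls there thus does not show that these factors were unchanged. UBL5, a ubiquitin-like protein, was higher over the 3 lines by less than 1.5-fold (0.54 and 0.50), and was called higher in Karpas422 with each shRNA, at 0.68 (adjusted p = 0.0016) and 0.74 (adjusted p = 0.0012). HSF1, the heat shock factor, was at 0.10 and 0.12 without passing (adjusted p = 0.12 and 0.070).

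Of 12 cytosolic heat shock genes tested, 4 rose with shSIRT3-1, against 3.92% of all genes, and 7 with shSIRT3-2, against 3.29%. None of the 12 was called lower over the 3 lines, and the medians were 0.37 and 0.65, beside −0.05 and −0.03 over all genes. With shSIRT3-1 HSPA4, HSPB1 and BAG3 were at −0.11, −0.37 and −0.33, without passing. HSPA8, the constitutive cytosolic HSP70, rose by 0.71 ± 0.21 (adjusted p = 0.011) and 1.12 ± 0.21 (adjusted p = 2.3e-04), HSPH1, an HSP110 exchange factor, by 0.74 and 0.99, and DNAJB1, a J-domain partner of HSP70, by 0.68 and 0.90. HSPA1B, an inducible HSP70, rose by 1.10 and 0.70, but it is nearly identical to HSPA1A and reads may be split between them. In Karpas422 5 and 7 of the 12 were called higher with shSIRT3-1 and shSIRT3-2, where 16.0% and 15.0% of all genes were called in either direction. In HBL1 2 and 9 were called higher, where 27.7% and 23.5% of all genes were called in either direction, and 7.51% were called higher with shSIRT3-2. In OCI-Ly1 0 were called with shSIRT3-1, against 4.50% of all genes, and 1 with shSIRT3-2, against 6.41%. It was HSPB1, lower there (−0.77, adjusted p = 0.042) and called higher in HBL1 with shSIRT3-2 (1.07, adjusted p = 0.034). The medians of the list in OCI-Ly1 were 0.42 and 0.33, and controls there spread widely, such as HSPA8 from 187 to 630 CPM. In Karpas422 with shSIRT3-1 BAG3 was called lower (−0.77, adjusted p = 0.014).

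Among 7 tested import motor and chaperone cofactors, 1 fell with each shRNA, against 9.09% and 10.2% of all genes, and 0 rose, with medians of −0.29 and −0.27. It was GRPEL2, a nucleotide exchange factor of HSPA9, at −1.15 ± 0.20 (adjusted p = 6.9e-05) and −0.88 ± 0.20 (adjusted p = 0.0011). At any fold 3 of the 7 were lower and 2 higher with shSIRT3-1, against 22.3% and 15.6% of all genes. With shSIRT3-2, 4 were lower and 0 higher, against 21.7% and 16.3%. Those higher with shSIRT3-1 were GRPEL1 (0.41, adjusted p = 0.011) and DNLZ (0.31, adjusted p = 0.041). Of 15 other mitochondrial proteases, peptidases and scaffolds, 2 rose with shSIRT3-1, against 3.92% of all genes, and 0 with shSIRT3-2, against 3.29%, and 0 fell, with medians of −0.03 and −0.10, the first of which was 0.08 with quantile normalization and 0.01 with median-ratio scaling. The 2 were HTRA2, a protease of the intermembrane space (0.70 ± 0.11, adjusted p = 4.2e-05), and PMPCA, a subunit of the presequence peptidase (0.67 ± 0.10, adjusted p = 1.1e-05), named after their values were seen. At any fold 3 of the 15 were higher and 1 lower with shSIRT3-1, against 15.6% and 22.3% of all genes. With shSIRT3-2, 2 were higher and 3 lower, against 16.3% and 21.7%. SPG7, also named after its values were seen, was higher at any fold with both shRNAs (0.32, adjusted p = 0.022, and 0.50, adjusted p = 7.8e-04). Of 10 genes of mitochondrial content, such as porins, import receptors and citrate synthase, 3 fell with shSIRT3-1, VDAC2 (−0.81), TOMM20 (−0.71) and VDAC3 (−0.69), against 9.09% of all genes, and 0 with shSIRT3-2, against 10.2%, with medians of −0.17 and 0.16. Beside the medians of the 10 chaperones and proteases, −0.23 and −0.10, the part of mitochondrial content in those values was not tested.

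**Figure D4:**
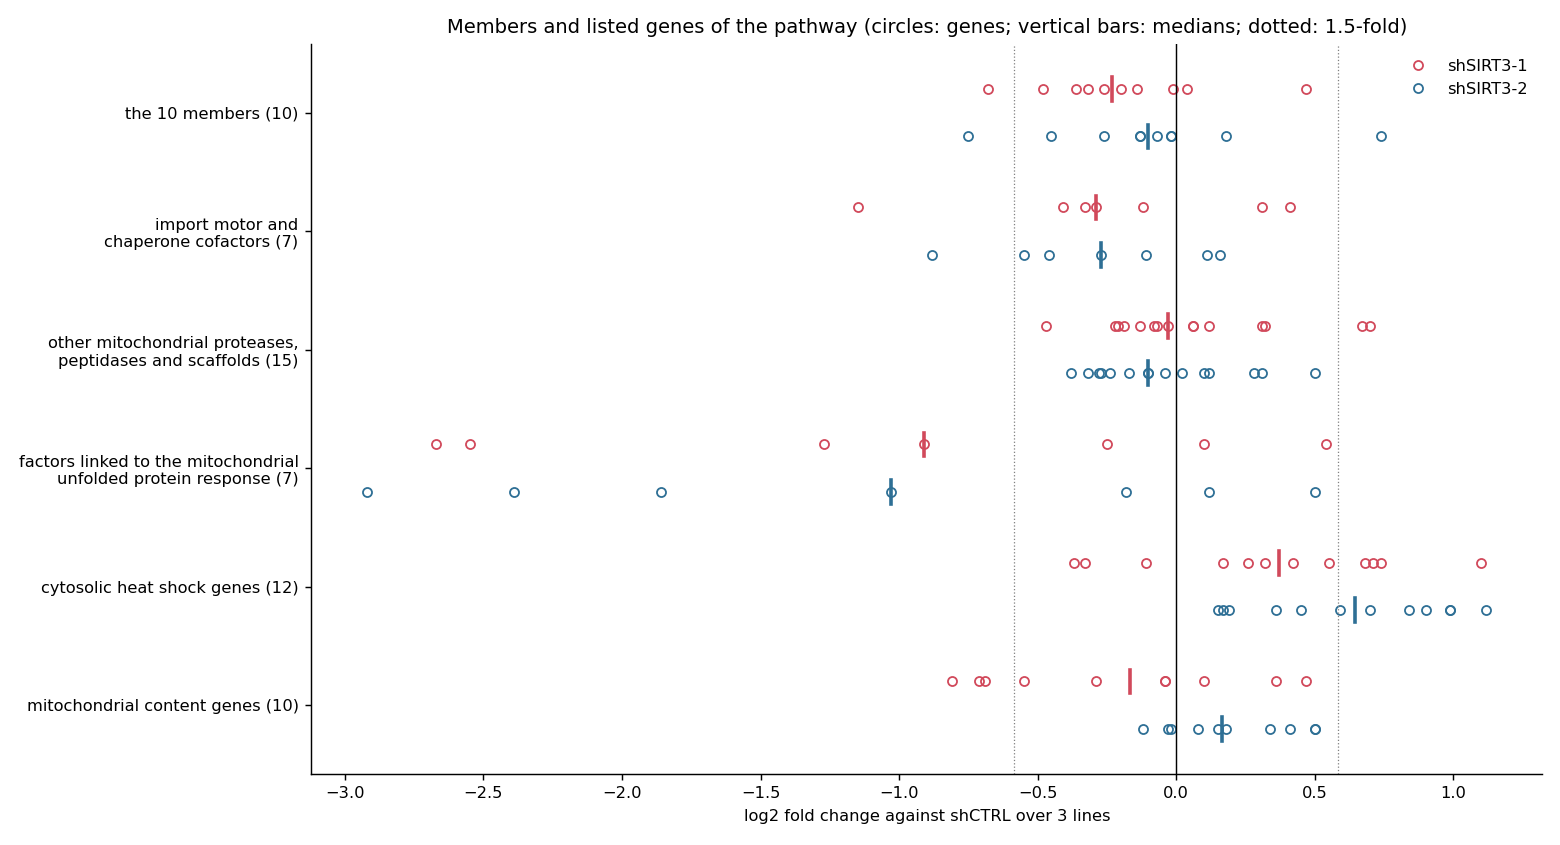
Log2 fold changes over the 3 lines (horizontal axis) of the 10 chaperones and proteases and of the genes tested in each of 5 lists, whose number stands in brackets; circles are genes, vertical bars medians and dotted lines 1.5-fold. The factors linked to the mitochondrial unfolded protein response reach −2.92, and cytosolic heat shock genes lie mostly to the right, up to 1.12.

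Across the 27 libraries, with each line centered on its own mean of log2(CPM + 0.1), the chaperones fell into different company. These correlations are descriptions over libraries that share lines, controls and the shift between shRNAs. HSPE1 was most like HSPA8 among 13075 genes (Pearson r = 0.98, Spearman rho = 0.96, and r = 0.98 without the 2 most distant libraries), with r of 0.94, 0.98 and 1.00 inside Karpas422, OCI-Ly1 and HBL1, followed by CCT3, a subunit of the cytosolic chaperonin, and MTCH2, an outer membrane protein (0.95 each). LONP1 was most like DARS, the cytosolic aspartyl-tRNA synthetase (r = 0.95, rho = 0.88, and 0.94 without the 2 most distant libraries), XPOT, the exportin of tRNAs (0.95), and SLC43A1, an amino acid transporter (0.94). HSPA9 was most like NDC80, a kinetochore protein (0.95), CMSS1 (0.94) and C5orf34 (0.93). HSPD1 was most like RCC1, the exchange factor of Ran (0.94), MTDH (0.93) and AHCY, which hydrolyzes S-adenosylhomocysteine (0.93), and r was 0.82, 0.82 and 0.77 without the 2 most distant libraries.

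**Figure D5:**
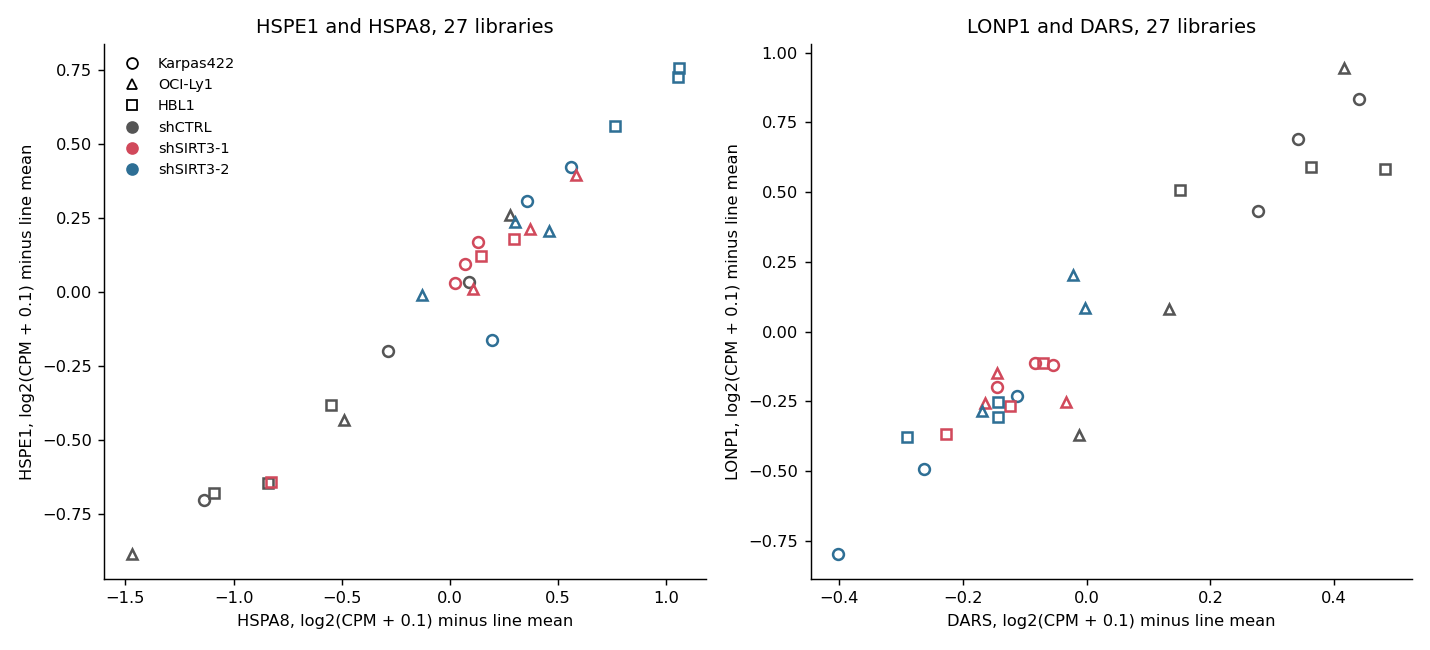
HSPE1 against HSPA8 (left) and LONP1 against DARS (right) in 27 libraries, as log2(CPM + 0.1) minus the mean of the line; shapes are lines and colors shRNAs. Pearson r is 0.98 on the left and 0.95 on the right, and control libraries lie mostly at the low end for HSPE1 and at the high end for LONP1.

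Among the 45 pairs of the 10 genes the median r was 0.40, beside 0.02 over all pairs of genes, and 34 pairs were above 0. The median was not recomputed without distant libraries. Without the 2 most distant, r went from 0.68 to 0.28 for HSPA9 with HSPD1, and from 0.82 to 0.80 for HSPA9 with AFG3L2. LONP1 and DNAJA3 were alike (r = 0.93, rho = 0.80), with r of 0.98, 0.78 and 0.97 in the 3 lines. HSPE1 ran against both, at −0.61 with LONP1 and −0.57 with DNAJA3, and its r with HSPD1, its chaperonin partner, was 0.61, with 0.54, 0.95 and 0.56 in Karpas422, OCI-Ly1 and HBL1. With ATF4, r was 0.91 for LONP1, 0.91 for DNAJA3 and −0.65 for HSPE1, pairs chosen after their values were seen. CLPX and CLPP, which act as a pair, had r = 0.48, and 0.31 without the 2 most distant libraries, with 0.09, 0.60 and 0.53 in the 3 lines.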

How the data were processed

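RNA was sequenced from 27 libraries. Random-primed libraries, with no strand protocol stated, were sequenced as paired ends, aligned to hg19 with STAR (per the labels) and counted over RefSeq genes with Rsubread by the authors. Although deposited under the name FPKM, the values are whole multiples of 1 step per library for genes of any length (100.0% of values within 0.01), so the deposited values were used as CPM. They sum to 40.3% to 45.6% of the total divided by. Dividing by the step gave whole reads. The reads of 2 OCI-Ly1 libraries (shCTRL replicate 3 and shSIRT3-2 replicate 1) passed that test here but not an automated one, and are less certain.

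Groups came from the sample titles. limma 3.58.1 in R 4.3.3 with a variance trend was fitted on log2(CPM + 0.1), for genes at 1 CPM or more in 3 or more libraries: 13076 over all libraries with line and shRNA as terms, 11235 in Karpas422, 11205 in OCI-Ly1, 11862 in HBL1 and 12607 among the 9 controls. P-values were adjusted by Benjamini-Hochberg over all genes tested, and an F test on interaction terms compared lines. The pseudocount and filter had been written for FPKM and were kept. The authors used edgeR, and edgeR 4.0.16 was run here on the recovered reads as an alternative. Other alternatives were pseudocounts of 1 and 0.01, no filter, quantile normalization, median-ratio scaling, no variance trend, a replicate block, fits on 18 libraries, and leaving out replicates, libraries or lines. Scripts were tested on simulated data. No 2 of the 27 libraries were identical. Percentages of control are 2 to the power of the fitted log2 fold change. Coordinates are GENCODE 44 on hg19, and promoter windows RefSeq on GRCh38.p14, with no coordinates converted. Python 3.11.15 with numpy 2.4.6 and matplotlib 3.10.9 was also used.

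The 10 genes and the 5 lists were chosen with earlier results of these data known, the lists from general knowledge. Named list genes are those called with both shRNAs in the same direction, at most 4 a list by mean change; other list genes in the text were named after their values were seen. The 3 genes most like HSPD1, HSPE1, HSPA9 and LONP1 by Pearson r are named. HSPD1, HSPE1 and HSPA1B have near-identical copies elsewhere in the genome, and how the counting treated reads shared between copies is not given in the sources used here. No protein sequences were used here. A further marker gene is not reported here.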

Additional observations from a re-analysis of the deposited data

Results flagged for a closer look

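The limma F test on the interaction of line and shRNA, with Benjamini-Hochberg adjustment over all genes, passed for 4 of the 10 genes. It passed for 41.8% of all genes, so the count was near the share of all genes. For these 4 the knockdown effect was not alike in Karpas422, OCI-Ly1 and HBL1. CLPX had an adjusted p of 0.011. Its log2 fold changes with shSIRT3-1 were −0.09 for Karpas422, −0.27 for OCI-Ly1 and −0.59 for HBL1. With shSIRT3-2 they were 0.00, −0.03 and −0.36 in that order. HSPA9 had an adjusted p of 0.014, with shSIRT3-1 at −0.35, 0.00 and −1.08 and shSIRT3-2 at −0.51, 0.12 and −0.40 in the same order of lines. DNAJA3 had an adjusted p of 0.041, with shSIRT3-1 at −0.52, −0.07 and −0.50 and shSIRT3-2 at −0.65, −0.16 and −0.55 in that order. HSPD1 had an adjusted p of 0.042, with shSIRT3-1 at −0.10, 0.24 and −0.74 and shSIRT3-2 at −0.05, 0.27 and 0.33. The −0.74 includes HBL1 shSIRT3-1 replicate 3, the lowest library of that group at 64.7 CPM. Leaving out 1 library at a time, DNAJA3 passed in 11 of 27 fits and HSPD1 in 10 of 27, with adjusted p up to 0.16 and 0.082.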

How the results depend on the processing

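No direction of a passed result reversed under any alternative run. The count for the difference between lines was 2 in place of 4 with no filter on low values, no variance trend and both edgeR tests, which kept HSPA9 and CLPX, and ranged from 0 to 5 when a replicate or single library was left out. Of all genes, 6254 of 23179 passed with no filter and 5263 of 13076 with no variance trend. The edgeR quasi-likelihood and likelihood ratio tests passed 4923 and 6043 of 13076. With quantile normalization HSPE1 joined LONP1, giving 2 genes with shSIRT3-1 and 2 with both shRNAs over the 3 lines. With shSIRT3-1 that setting called 1774 of 13076 genes. Karpas422 against OCI-Ly1 gave 1 gene in place of 2 with median-ratio scaling and both edgeR tests, where HSPA9 was under 1.5-fold. Of 12607 genes, median-ratio scaling called 6330 there and the edgeR tests 6419 and 6557. Without Karpas422, shSIRT3-2 gave 1 gene and both shRNAs 0. Without OCI-Ly1, shSIRT3-1 gave 2, and without HBL1, shSIRT3-2 gave 1.

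Leaving out replicates or single libraries gave, over the 3 lines, 0 to 2 genes with shSIRT3-1, 0 to 2 with shSIRT3-2 and 0 to 1 with both. It gave 0 to 1 in Karpas422 with shSIRT3-1, 0 to 1 in OCI-Ly1 with each shRNA (1 without OCI-Ly1 shCTRL replicate 1, HSPE1), 1 to 4 in HBL1 with shSIRT3-1, 1 to 3 in HBL1 with shSIRT3-2 and 1 to 3 for Karpas422 against OCI-Ly1. Without replicate 2 of every group the counts against shCTRL over the 3 lines were 0. The cause of these moves was not tested, beyond fewer libraries in each fit. Shares of all genes were not taken for fits that left out replicates, libraries or lines.

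With the replicate number as a block the counts over the 3 lines were 1 for shSIRT3-1 and 2 for shSIRT3-2. Of all 13076 genes, 1683 and 1756 were called. Between lines the count was 4, and 7695 of 13076 genes passed. HBL1 with shSIRT3-1 gave 4 in place of 3, against 3736 of 11862 genes, as HSPD1 passed at an adjusted p of 0.045. Libraries with the same number deviated together in 26 of 27 pairs (r over 0.1, mean 0.32, lowest 0.01, beside a mean of −0.14 for other numbers), and 25 of 27 libraries correlated best with one of their own number. Since 1 of these 27 pairs was under 0.1 and the labels give the number no meaning, the fits without the block were kept. Among shCTRL libraries of different lines, 6 of 9 pairs with the same number also had r over 0.1 (mean 0.17, lowest 0). The p-values of fits without the block take no account of this shared deviation.

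Single-line intervals, from 3 libraries a group, were wide for some genes. For LONP1 in OCI-Ly1 with shSIRT3-1 the interval was −1.05 to 0.18, where the controls spread from 89.4 to 223 CPM. It excluded neither a 1.5-fold fall nor no change. In Karpas422 and HBL1 the LONP1 intervals with that shRNA were −1.12 to −0.47 and −1.02 to −0.60.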
